A study of Rattus norvegicus with 6 samples.

Results

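The small leucine-rich proteoglycans and matrix glycoproteins described here are 10 genes, Lum, Dcn, Bgn, Ogn, Fmod, Dpt, Abi3bp, Lrrc17, Postn and Mfap5, of 14217 genes that the array's annotation names alone on a probe set. They were chosen by their role in the matrix with earlier hCG against Control results of these same arrays in view, so their changes describe these arrays and are no independent evidence about the family. All 10 were on the array, with 14 probe sets in all. The probe set of highest mean over the 6 arrays was selected to stand for each gene.

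Mammospheres are floating spheres grown from dissociated mammary cells on plates to which cells do not attach. They came from female Sprague Dawley rats in 2 groups that differed in one treatment. The hCG group (3 arrays, numbered 5, 6 and 7) received recombinant human chorionic gonadotropin, a pregnancy hormone, at 100 IU per day by intraperitoneal injection from 55 days of age for 21 days. The Control group (3 arrays, also numbered 5, 6 and 7) received phosphate buffered saline on the same schedule. In both groups the abdominal and inguinal glands labelled 4 and 5 were removed 21 days after dosing ended, and cells enriched for epithelium were grown for 7 days with epidermal and basic fibroblast growth factors and heparin. The labels do not say whether each array is 1 animal, and the p-values reflect the spread among these samples, a spread that may be technical.

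Small leucine-rich proteoglycans are secreted proteins whose core is built of leucine-rich repeats and which bind collagen, where they shape how fibrils assemble and how thick they grow. Most carry chains of chondroitin, dermatan or keratan sulfate, and several also bind growth factors such as TGF-beta. In the mammary gland they are made mainly by stromal fibroblasts, and the matrix glycoproteins considered with them link collagen, elastic microfibrils and cell surface integrins.

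Among the 10 genes, Abi3bp, Lrrc17 and Lum rose in hCG spheres and Dpt fell, while the 95% confidence intervals of the log2 changes of Dcn and Bgn lay within 0.28 of 0. Of the 9 genes above the filter on dim signal, 4 passed limma's test at an adjusted p under 0.05 over all 10424 genes tested, 3 higher and 1 lower. Among the 3 is Abi3bp, which reached the test through its hCG values. Over all genes tested, 1.82% passed, 1.01% higher and 0.815% lower. Because the members were chosen with this contrast known, nothing about the family is read from that difference in share. The hCG and Control values did not overlap in 6 of the 9 genes, 5 higher and 1 lower, where 31.6% of all genes did not overlap, 19.3% higher and 12.3% lower. The median log2 change was 0.43 over the 9 genes, 0.32 with the 1 gene below the filter added, and 0.03 over all genes tested.

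The levels of markers for the labelled cell type and for other cells were as follows. Epithelial genes were present on every array: the log2 level of Epcam, a surface protein of epithelium, was 7.17, 7.06 and 6.90 on hCG arrays 5, 6 and 7, against 6.36, 7.62 and 7.97 on Control arrays 5, 6 and 7. Fibroblast genes were present as well, with Pdgfra (named, like Epcam, as a defining marker), a growth factor receptor of fibroblasts, at 11.10, 11.10 and 11.16 on hCG arrays and 10.90, 10.91 and 10.79 on Control arrays. The spheres therefore held RNA of both epithelial and stromal genes, and in such bulk samples fewer cells of a type and less RNA per cell cannot be told apart. Array medians lay between 3.44 and 3.48. Bacterial transcripts added before labelling averaged a log2 level of 4.51 ± 0.34 on hCG arrays and 5.56 ± 0.14 on Control arrays (SD, n = 3 each), a difference of -1.05 (two-sided exact permutation test, p = 0.1, which is the lowest value 3 against 3 arrays can give). The signal of 3' over 5' probe sets, a measure of RNA length, stood apart on Control 7. For Gapdh the log2 difference was 0.05, 0.16 and 0.11 on hCG arrays and 0.22, 0.11 and 0.67 on Control arrays. For Actb it was 1.6, 1.75 and 1.55 on hCG arrays and 1.65, 1.46 and 2.18 on Control arrays. That array also moved the values of Fmod and Mfap5 and the number of genes called, given with and without it, and the part of RNA length in them was not tested. The difference in spike level runs alongside every result given here, and its part in them was not tested.

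**Figure D1:**
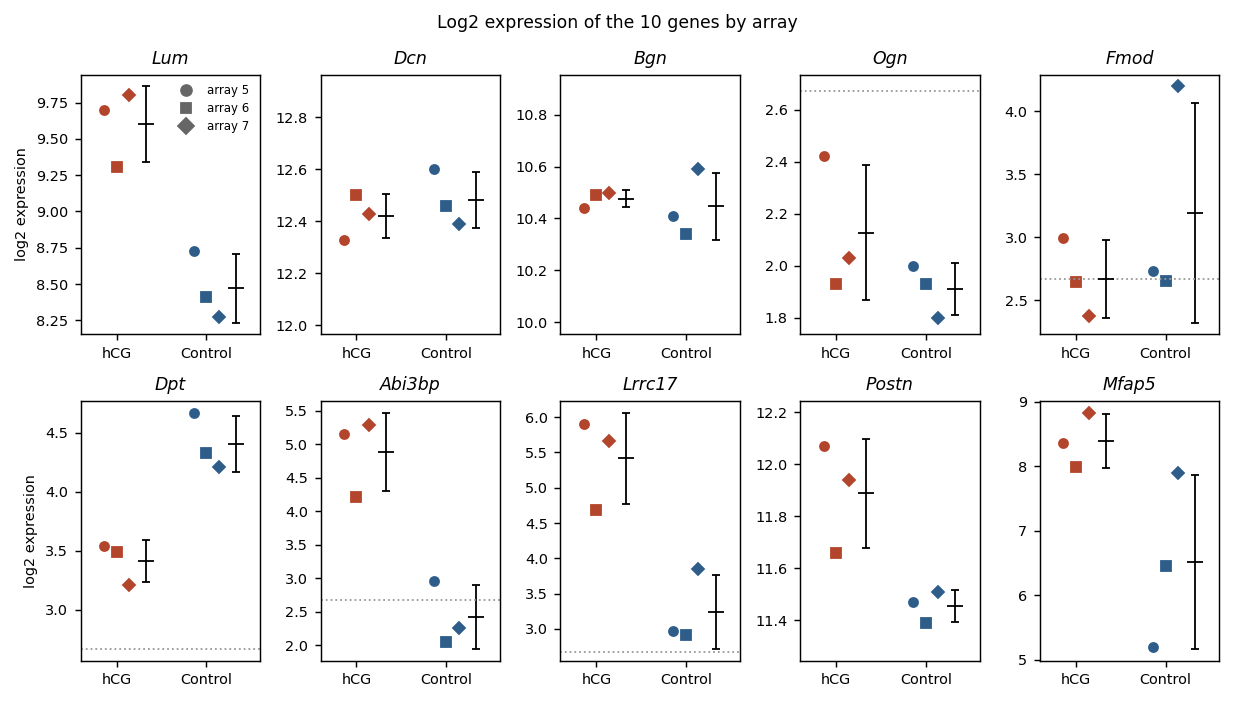
Log2 expression of the 10 genes on the 3 hCG arrays (red) and the 3 Control arrays (blue), with array numbers by symbol, the group mean and SD in black, and a dotted line at the filter level of 2.67 where the axis reaches it. Values of Abi3bp, Lrrc17, Lum, Postn and Mfap5 were higher on every hCG array than on every Control array, those of Dpt were lower, and those of Dcn, Bgn, Ogn and Fmod overlapped.

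Decorin (Dcn) and biglycan (Bgn) are the closely related members that carry chondroitin or dermatan sulfate chains. Dcn had log2 levels of 12.33, 12.50 and 12.43 on hCG arrays 5, 6 and 7, against 12.60, 12.46 and 12.39 on Control arrays 5, 6 and 7. The groups overlapped, and the log2 change was -0.06 (SE 0.09, 95% interval -0.28 to 0.16, limma adjusted p = 0.731). Decorin binds type I collagen and holds back its lateral fusion. Bgn had levels of 10.44, 10.49 and 10.50 on hCG arrays, against 10.41, 10.34 and 10.59 on Control arrays, with a change of 0.03 (SE 0.09, interval -0.19 to 0.24, limma adjusted p = 0.886). Neither gene was called, and the intervals of the ratio of hCG to Control ran from 0.822 to 1.12 for Dcn and from 0.878 to 1.18 for Bgn. The signs of both changes were not stable: that of Dcn was 0.01 after quantile normalization, and that of Bgn was -0.03 after cyclic loess normalization and without Control 6.

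Lumican (Lum) and fibromodulin (Fmod) carry keratan sulfate and share a binding region on type I collagen. Lum had log2 levels of 9.70, 9.31 and 9.80 on hCG arrays 5, 6 and 7, against 8.73, 8.41 and 8.27 on Control arrays 5, 6 and 7. The lowest hCG value exceeded the highest Control value by 0.58, and Lum rose by 1.13 (SE 0.17, interval 0.73 to 1.53, 2.19-fold, limma adjusted p = 0.0373). Fmod lay near the filter level, at 2.99, 2.64 and 2.37 on hCG arrays and 2.73, 2.65 and 4.20 on Control arrays. Its 1 high value was that of Control 7. The change of -0.53 (SE 0.41, interval -1.50 to 0.45, limma adjusted p = 0.472) was -0.03 without that array, and 98.9% of the tested genes had a smaller spread within groups.

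Osteoglycin (Ogn), a member with a shorter run of repeats, was the 1 gene below the filter. Its brightest probe set read 2.42, 1.93 and 2.03 on hCG arrays and 2.0, 1.93 and 1.80 on Control arrays, which overlapped. In the fit without the filter its change was 0.21 (SE 0.14, interval -0.11 to 0.54, limma adjusted p = 0.431). The other 3 probe sets of Ogn, with means over the 6 arrays of 1.83, 1.21 and 1.13, had changes of 0.63, 0.19 and 0.16, and hCG and Control values overlapped in each. No change of Ogn was called, and its interval spans 0.

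Dcn and Lum lie next to each other in the rat genome, followed by the related proteoglycan genes Kera and Epyc, in the RefSeq gene order of assembly GRCr8. Of this pair, Lum rose and the interval of Dcn spans 0. Fmod follows Prelp and Optc, which encode proteoglycans of the same family. Prelp, which anchors basement membranes to collagen, had levels of 4.40, 5.74 and 5.34 on hCG arrays and 5.99, 5.90 and 6.42 on Control arrays, and its difference of -0.94 (SE 0.33) did not pass (limma adjusted p = 0.156). Ogn is followed by Omd and Aspn, with Ecm2 beyond them. Aspn, named here for its place beside Ogn, differed by 0.54 (SE 0.22) at a limma adjusted p of 0.191. Ecm2, a matrix protein with leucine-rich repeats, had levels of 5.82, 5.82 and 6.22 on hCG arrays and 5.12, 5.27 and 5.03 on Control arrays. Ecm2 rose by 0.82 (SE 0.13, 1.76-fold, limma adjusted p = 0.0424).

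Abi3bp encodes a secreted matrix protein that binds collagen and was first found through its affinity for the adaptor Abi3. Its log2 levels were 5.16, 4.22 and 5.29 on hCG arrays 5, 6 and 7, against 2.96, 2.05 and 2.26 on Control arrays 5, 6 and 7. The groups were separated by 1.26, with hCG 6 the lowest of the hCG arrays. Abi3bp rose by 2.46 (SE 0.34, interval 1.66 to 3.26, 5.52-fold, limma adjusted p = 0.0368). Its Control mean of 2.42 lay below the filter level of 2.67, so the gene passed the filter through its hCG values. Its fold is set against dim signal whose distance from background was not measured here, and its size is uncertain for that reason.

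Lrrc17 encodes a secreted protein with leucine-rich repeats that is not counted among the proteoglycans and that in mouse restrains the formation of osteoclasts. It read 5.91, 4.69 and 5.66 on hCG arrays and 2.97, 2.91 and 3.85 on Control arrays. Again hCG 6 was the lowest hCG array, and Control 7 was the highest Control array. Lrrc17 rose by 2.18 (SE 0.37, interval 1.29 to 3.06, 4.52-fold, limma adjusted p = 0.0445), which ranked 3 among positive changes. Its Control mean of 3.24 lay below the array medians of 3.44 to 3.48. The distance of that signal from background was not measured, which leaves the size of the fold uncertain.

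Dermatopontin (Dpt) binds decorin and speeds the assembly of collagen fibrils. Its brightest probe set read 3.54, 3.49 and 3.21 on hCG arrays 5, 6 and 7, against 4.67, 4.33 and 4.21 on Control arrays 5, 6 and 7. Every hCG value lay below every Control value, by at least 0.67, and Dpt fell by 0.99 (SE 0.15, interval -1.34 to -0.63, 1.98-fold, limma adjusted p = 0.0375). The hCG mean of 3.42 lay below the array medians of 3.44 to 3.48, so the size of this fold is uncertain too. The other probe set of Dpt read 3.07, 3.01 and 2.98 on hCG arrays and 4.00, 3.48 and 2.98 on Control arrays. There the groups overlapped at Control 7, and the change was -0.47 (SE 0.24, limma adjusted p = 0.298 over probe sets). With the mean of both probe sets, Dpt had a change of -0.73 and was not called (limma adjusted p = 0.081).

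Periostin (Postn) is a matricellular protein that joins collagen, fibronectin and integrins. It read 12.07, 11.66 and 11.94 on hCG arrays and 11.47, 11.39 and 11.51 on Control arrays. The groups did not overlap, with a gap of 0.15, and the change of 0.43 (SE 0.12, interval 0.15 to 0.72, 1.35-fold) did not pass (limma adjusted p = 0.102). Mfap5 encodes a glycoprotein of fibrillin microfibrils. It read 8.36, 7.99 and 8.83 on hCG arrays 5, 6 and 7, against 5.20, 6.45 and 7.89 on Control arrays 5, 6 and 7. Control values were widely spread, and the gap between the groups was 0.10. Its change of 1.88 (SE 0.62, interval 0.40 to 3.36, 3.68-fold) did not pass (limma adjusted p = 0.138), although it ranked 11 among positive changes, and 99.9% of tested genes had a smaller spread within groups.

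**Figure D2:**
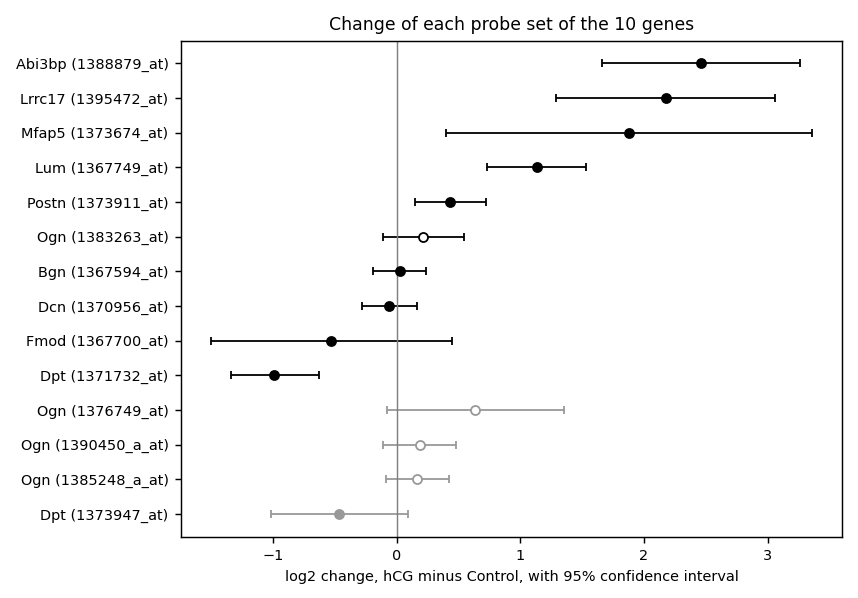
Log2 change, hCG minus Control, of each of the 14 probe sets with its 95% confidence interval from limma. Black points stand for their gene, grey points are further probe sets of Ogn and Dpt, and open points lay below the filter. Intervals of Abi3bp, Lrrc17, Mfap5, Lum and Postn lay above 0 and that of the brightest Dpt probe set below 0.

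The calls rested on most of the arrays. When Control 5, Control 6, hCG 5 or hCG 7 was left out, limma passed 0 of the 10424 genes, these 4 included, while 1950, 1931, 1649 and 1455 genes had an unadjusted p under 0.05 (2510 with the full set). In those 4 fits the limma adjusted p of Lum lay between 0.0639 and 0.179, and that of Abi3bp between 0.0639 and 0.174. That of Dpt lay between 0.0787 and 0.179, and that of Lrrc17 between 0.116 and 0.208. Without Control 7, limma called 5.60% of genes, and Mfap5 then passed with a change of 2.57 (adjusted p = 0.0377) beside the 4 called with all arrays. Without hCG 6, it called 3.24%, and Postn passed with a change of 0.55 (adjusted p = 0.0492), again beside the same 4 genes. The log2 change with each array left out in turn lay between 2.26 and 2.80 for Abi3bp, 1.93 and 2.54 for Lrrc17, 1.03 and 1.28 for Lum, 1.22 and 2.57 for Mfap5, and -1.08 and -0.85 for Dpt.

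**Figure D3:**
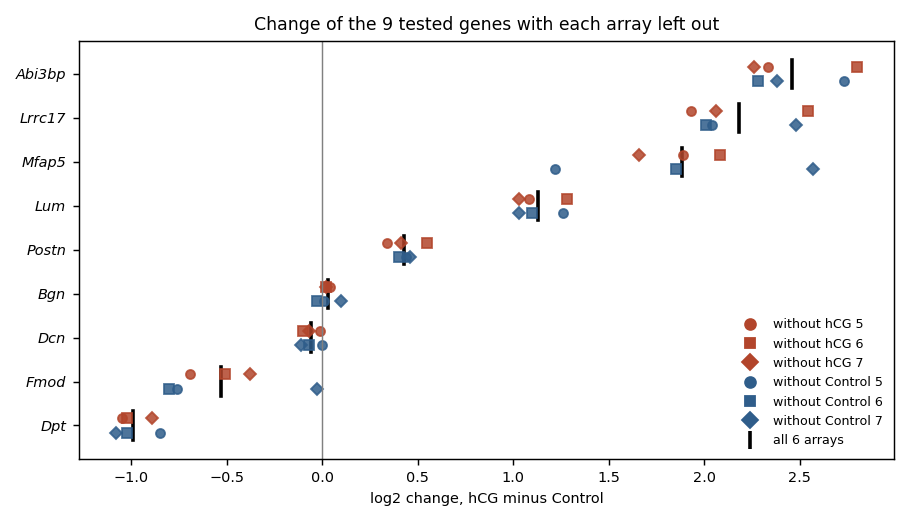
Log2 change, hCG minus Control, of the 9 tested genes with all 6 arrays (black bar) and with each hCG array (red) or Control array (blue) left out. The change of Mfap5 moved most, between 1.22 without Control 5 and 2.57 without Control 7, and that of Fmod was -0.03 without Control 7.

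The promoter windows of the 4 called genes are shown because 3 of these genes rose and 1 fell. Each holds 250 bases before and 50 after the start site that RefSeq gives on GRCr8. Lum is at chr7:34245456-34245755 on the plus strand, Abi3bp at chr11:57597940-57598239 on the minus strand, Lrrc17 at chr4:14423999-14424298 on the minus strand and Dpt at chr13:79656091-79656390 on the plus strand. Sequences run 5′ to 3′ along the gene, and capitals mark matches on either strand to a TATA box (TATAAA), a TEAD motif (GGAATG), a SMAD box (GTCTG) or an AP-1 motif (TGANTCA).
Lum: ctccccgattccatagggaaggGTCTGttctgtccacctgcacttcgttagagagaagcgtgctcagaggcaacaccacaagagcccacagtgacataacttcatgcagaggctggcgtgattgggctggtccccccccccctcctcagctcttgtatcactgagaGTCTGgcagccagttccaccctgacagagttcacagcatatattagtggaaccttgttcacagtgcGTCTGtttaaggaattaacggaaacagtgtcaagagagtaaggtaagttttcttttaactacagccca
Abi3bp: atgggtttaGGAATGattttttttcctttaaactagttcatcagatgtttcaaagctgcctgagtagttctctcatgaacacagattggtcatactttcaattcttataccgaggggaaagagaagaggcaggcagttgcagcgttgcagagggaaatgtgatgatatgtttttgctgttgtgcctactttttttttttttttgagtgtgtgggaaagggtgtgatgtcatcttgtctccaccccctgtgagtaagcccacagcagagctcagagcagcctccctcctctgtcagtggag
Lrrc17: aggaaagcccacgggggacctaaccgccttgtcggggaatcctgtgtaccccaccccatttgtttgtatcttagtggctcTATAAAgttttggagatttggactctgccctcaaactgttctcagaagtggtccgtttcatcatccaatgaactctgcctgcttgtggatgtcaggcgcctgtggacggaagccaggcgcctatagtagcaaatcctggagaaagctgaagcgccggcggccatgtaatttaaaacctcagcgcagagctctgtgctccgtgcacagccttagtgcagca
Dpt: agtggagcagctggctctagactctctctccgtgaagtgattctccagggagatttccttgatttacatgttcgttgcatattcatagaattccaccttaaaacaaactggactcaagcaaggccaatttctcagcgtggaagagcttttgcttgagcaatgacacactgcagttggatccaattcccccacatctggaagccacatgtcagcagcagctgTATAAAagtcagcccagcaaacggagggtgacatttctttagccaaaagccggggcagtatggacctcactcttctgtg

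Of the 10 genes, 8 had such a window in the RefSeq table (all but Dcn and Bgn). The window of Dpt held TATAAA from position -29, with the start site counted as 0, and that of Lrrc17 held it from -170. The letters TATAAA occurred in 4 of the 8 windows, those of Ogn, Dpt, Lrrc17 and Postn, and in 14.2% of all 33469 windows. The window of Lum held GTCTG from positions -228, -84 and -18. These letters occurred in 4 of the 8 windows and in 50.1% of all windows. GGAATG lay in 2 of the 8, those of Abi3bp and Ogn, and in 14.2% of all, while TGANTCA lay in 0 of the 8 and in 7.33% of all. An E-box (CANNTG) lay in 7 of the 8 and in 72.1% of all, and CCAAT in 6 of the 8 and in 37.5% of all. The 4 motifs in capitals do not overlap one another in these windows, and a match is only a match of letters.

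The tested genes whose profiles over the 6 arrays lay closest to those of the called genes were found by the root mean square difference, after each profile's own mean was taken off. For Lum they were Srpx (0.13 log2 units), Ch25h (0.14) and Spon1 (0.15), of which Spon1 encodes the matrix protein spondin 1 and Ch25h an enzyme that hydroxylates cholesterol. Srpx had levels of 10.13, 9.54 and 9.92 on hCG arrays and 8.89, 8.47 and 8.34 on Control arrays. For Dpt they were Foxq1 (0.08), Mrps6 (0.09) and Nqo1 (0.10), a transcription factor, a mitochondrial ribosomal protein and a quinone reductase. For Abi3bp the closest was Lrrc17, at 0.49, followed by Septin4 (0.53) and the neuronal microtubule gene Map2 (0.55). For Lrrc17 they were the heparin-binding growth factor Ptn (0.18), Septin4 (0.26) and the endothelial transcription factor Sox17 (0.30). The 6 points of a profile share the 2 groups, so genes with a like change between groups come out close. The Control values of Map2 (2.23, 2.62 and 2.44) lay below the filter level of 2.67. Like Abi3bp, Map2 passed the filter through its hCG values.

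Other small leucine-rich proteoglycans did not move one way. Of 13 listed genes 6 were tested, 1 rose (Ecm2), 0 fell and 5 did not pass, with a median change of -0.15. Over all genes tested, 1.01% rose and 0.815% fell. Besides Prelp, Tsku, which encodes tsukushi, had levels of 4.45, 4.56 and 4.56 on hCG arrays and 4.77, 4.81 and 5.22 on Control arrays, and its difference of -0.41 (SE 0.13) did not pass (limma adjusted p = 0.134). The enzymes that build the sulfated chains were measured by 18 of 25 listed genes, of which 0 passed by limma, with a median of -0.06. The closest was Csgalnact1, which starts chondroitin chains, at 0.45 (SE 0.08, limma adjusted p = 0.05004). The change was -0.58 for the sulfotransferase gene Chst12 (limma adjusted p = 0.0543) and -0.86 for Chst2 (0.0567). Large proteoglycans and hyaluronan genes had 4 tested members, a median change of 0.22 and 0 calls by limma. Of their changes 3 lay above 0, against 5818 of all 10424. Hapln1, a link protein of hyaluronan, stood at 0.24 (SE 0.13, limma adjusted p = 0.301), and Hspg2, the basement membrane proteoglycan perlecan, at 0.25 (SE 0.17, 0.422). The Control mean of Hapln1 (2.59) lay below the filter level of 2.67, so Hapln1 passed the filter through its hCG values. Versican (Vcan), the large proteoglycan of loose stroma, stood at -0.25 (SE 0.18, limma adjusted p = 0.431).

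Elastic fibre and microfibril genes, the partners of Mfap5, had a median change of 0.24 over 16 genes. Of these, 0 rose, 1 fell and 15 did not pass, where 1.01% of all genes rose and 0.815% fell. Leaving out hCG 6 brought 3 of them to a call as higher, while such calls over all 10424 genes rose from 105 to 186. Ltbp2, a fibrillin-binding protein, read 4.70, 4.90 and 4.82 on hCG arrays and 5.67, 5.80 and 6.26 on Control arrays, and fell by 1.10 (SE 0.16, 2.15-fold, limma adjusted p = 0.0368). Mfap2, the close relative of Mfap5, had levels of 8.22, 7.14 and 7.62 on hCG arrays and 6.31, 6.12 and 6.58 on Control arrays. The groups did not overlap, and the change of 1.33 (SE 0.27) did not pass (limma adjusted p = 0.0575). Tgfbi, a collagen-binding relative of periostin, differed by 1.25 (SE 0.26) at a limma adjusted p of 0.0591.

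Matricellular and adhesive glycoproteins had a median of -0.02 over 18 genes, with 2 higher, 0 lower and 16 that did not pass. Over all genes tested, 1.01% were called higher and 0.815% lower. The groups did not overlap in 2 higher genes and 4 lower ones, where 19.3% of all genes were higher and 12.3% lower without overlap. Ccn1, a matricellular protein that binds integrins, read 7.44, 7.41 and 7.51 on hCG arrays and 6.81, 6.57 and 6.63 on Control arrays. Ccn1 rose by 0.78 (SE 0.09, 1.72-fold, limma adjusted p = 0.0307). Spon1 rose by 1.05 (SE 0.19, limma adjusted p = 0.0493), and missed the threshold when p-values were adjusted over all probe sets (0.0513). Thbs2, which regulates collagen fibril assembly, differed by -1.45 (SE 0.34) at a limma adjusted p of 0.073, with no overlap between groups.

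Fibrillar collagens and their partners, the proteins that these proteoglycans bind or that process and cross-link them, had a median of 0.37 over 17 genes, and 16 of the 17 changes lay above 0, against 5818 of all 10424. The groups did not overlap in 8 of the 17, all higher, where 19.3% of all genes tested were higher without overlap. Of the 17, 1 rose, where 1.01% of all genes did. That gene was Col12a1, a collagen that sits on the surface of fibrils, at 8.22, 8.28 and 8.47 on hCG arrays and 7.16, 7.14 and 7.19 on Control arrays, a rise of 1.16 (SE 0.09, 2.23-fold, limma adjusted p = 0.0289). The change was 0.37 for Col3a1 (limma adjusted p = 0.0617) and 0.50 for Col6a3 (0.0625). Leaving out Control 7 raised the number of these genes called higher to 5, and the number over all 10424 genes from 105 to 348.

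**Figure D4:**
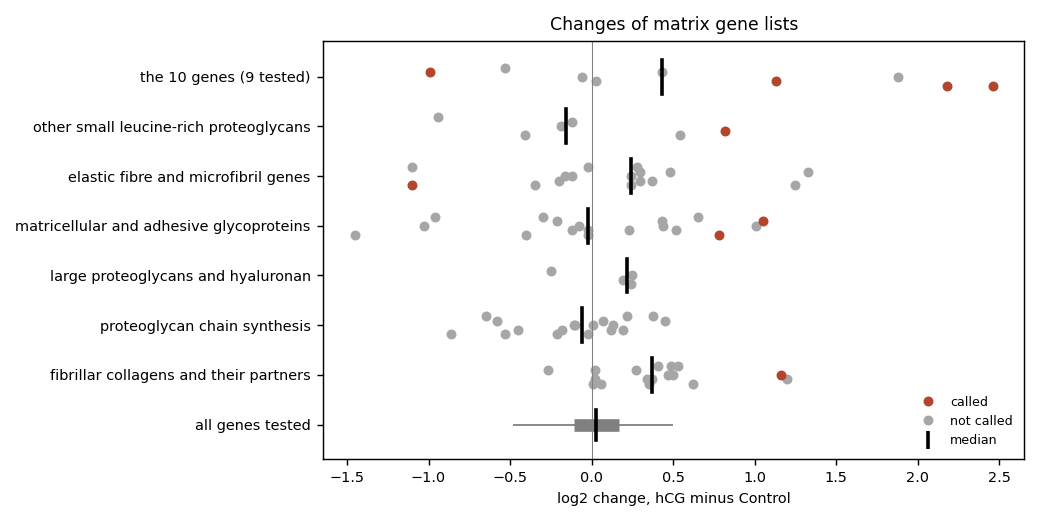
Log2 change, hCG minus Control, of each tested gene (points, red where called) in the 10 genes and in 6 further matrix lists, with each list's median as a black bar. The lowest row shows all genes tested, with the box from the 25th to the 75th percentile, -0.11 to 0.17, and the line from the 5th to the 95th, -0.48 to 0.50. The calls among the 10 genes lay at 2.46, 2.18, 1.13 and -0.99.

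Marker levels of the cell types that could supply this matrix RNA were summarised per array as the mean of a list's log2 levels, each gene relative to its Control mean. Fibroblast markers stood at 0.03, -0.05 and 0.06 on hCG arrays 5, 6 and 7, against -0.02, 0.01 and 0.01 on Control arrays 5, 6 and 7, with a median change of 0.16 over 14 genes and 0 calls. Of the 14 changes 10 lay above 0, against 5818 of all 10424. The groups did not overlap in 4 higher genes and 2 lower ones, where 19.3% of all genes were higher and 12.3% lower without overlap. The higher ones were Col3a1 at 0.37 (limma adjusted p = 0.0617), Vim at 0.37 (0.0828), Fap at 0.52 (0.108) and Pdgfra at 0.25 (0.12), of which Vim and Fap are named to complete this count. The lower ones were S100a4 at -0.82 (limma adjusted p = 0.0533) and Twist2 at -1.16 (0.0762). In this list 3 genes were called higher and 2 lower without Control 7, where 348 and 236 of all 10424 were. The fibroblast list shares Col1a1, Col1a2 and Col3a1 with the collagen list and Fbn1 with the microfibril list. It also shares Pdgfrb with the pericyte list, and the pericyte list shares Acta2 with the basal epithelial list.

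Endothelial markers stood at 1.19, 1.25 and 1.16 on hCG arrays and -0.36, -0.13 and 0.49 on Control arrays. Of 11, 5 rose (Emcn, Esam, Sox17, Erg and Cd93), where 1.01% of all genes did. Of these, Erg (limma adjusted p = 0.0493) missed the threshold when p-values were adjusted over all probe sets (0.0513). When Control 7 was left out, 9 of 11 rose, where 348 of all 10424 genes did. Pericyte markers stood at 0.39, 0.42 and 0.55 on hCG arrays and -0.11, -0.04 and 0.16 on Control arrays, with 1 of 7 called, Rgs5, which rose by 0.66. The Control means of Sox17 (2.23) and Rgs5 (2.47) lay below the filter level of 2.67, so both passed the filter through their hCG values. Basal epithelial markers stood at 0.52, 0.65 and 0.72 on hCG arrays and -0.61, 0.13 and 0.48 on Control arrays, with 0 of 9 called. All 9 changes lay above 0, against 5818 of all 10424, with a median of 0.68. The groups did not overlap in 3 (Acta2, Myh11 and Itga6), all higher, where 19.3% of all genes were higher without overlap. Luminal epithelial markers stood at -0.34, -0.50 and -0.64 on hCG arrays and -0.76, 0.17 and 0.59 on Control arrays. Of 10, 1 was called, Cd24, which fell by 1.42, where 0.815% of all genes fell. Across Control arrays Mfap5 (5.20, 6.45 and 7.89) was lowest on Control 5 and highest on Control 7. The luminal, basal, endothelial, pericyte and adipocyte levels had that order. So did the levels of fibrillar collagens (-0.15, -0.04 and 0.19) and of elastic fibre and microfibril genes (-0.12, 0.04 and 0.08). Lum, Dpt and Abi3bp were highest on Control 5, and Lrrc17 was highest on Control 7. Lists of macrophage, adipocyte and Schwann cell markers had 3, 3 and 5 tested genes with medians of 0.55, 0.02 and -0.17. Of these genes 1 was called, Fabp4, which capillary endothelium also expresses and which rose by 1.91. The macrophage median rests on 3 of 10 listed genes that did not move one way. Adgre1 stood at 0.65 (limma adjusted p = 0.411) and Tyrobp at 0.55 (0.146), but Cd68 at -1.33 (0.0879), with no overlap between groups. The part of endothelial, pericyte and epithelial cells in the changes of the 10 genes was not tested.

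**Figure D5:**
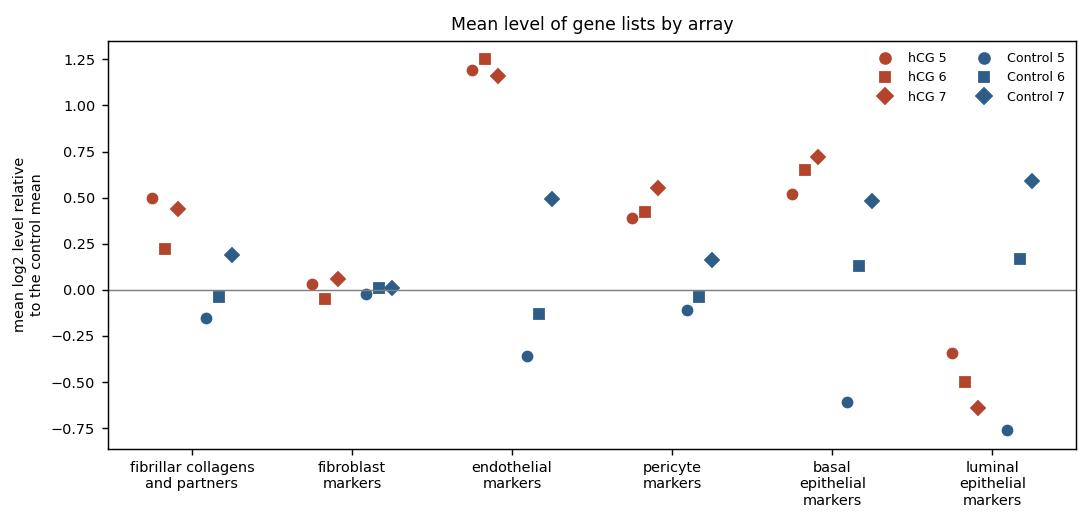
Mean log2 level of the tested genes of 6 lists on each array, each gene relative to its Control mean, for hCG arrays (red) and Control arrays (blue). Fibroblast markers lay between -0.05 and 0.06 on all 6 arrays, and endothelial markers lay between 1.16 and 1.25 on hCG arrays, above the highest Control array at 0.49.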

How the data were processed

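RNA from hCG and Control mammospheres was measured on Affymetrix 3' arrays after 2 rounds of amplification, as the labels' protocols state. The deposited table holds the authors' log2 expression values for 31099 probe sets; RMA, MAS5 and limma appear, without roles, in the submitters' processing notes, and the log base and normalization, not given in the sources used here, were judged from the values (0.74 to 13.1, with like medians on all arrays). Such values do not show a shift common to most genes. Precision is limited by the number of arrays (4 residual degrees of freedom).

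The 57 control probe sets and the dimmest 40% of the rest by overall mean (below 2.67) were left out, leaving 18625. Names came from the platform annotation (20826 probe sets with 1 gene, 436 with several, 9780 with none), updated through Entrez numbers with RefSeq GRCr8. The brightest probe set stood for each of 10424 genes. The contrast of hCG minus Control was fitted with limma 3.58.1 (lmFit, eBayes; R 4.3.3), two-sided, with Benjamini-Hochberg adjustment over these genes. Adjustment over all 18625 probe sets, tried after seeing the data, called 177 genes instead of 190.

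The members, gene lists and alternatives were chosen with earlier results of these data known. Named genes are the members, the called genes and 3 of smallest p in each list, and the 3 profiles closest to each called member. In the pericyte, luminal epithelial, adipocyte and Schwann cell lists, only called genes are named by this rule. Others are said to be named for another reason. The fit was tested on simulated data. Alternatives were other filters and normalizations, the block, array weights, trend, robust, mean of probe sets and each array left out. Scanner files were not used here.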

Additional observations from a re-analysis of the deposited data

How the results depend on the processing

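The counts of called genes depended on the setting more than the changes did. Against 105 genes higher and 85 lower, array weights gave 1654 and 1009, eBayes with trend 172 and 134, and the replicate block (array number as a block) 68 and 50. The block combined with adjustment over all probe sets, chosen after seeing the data, gave 0 higher and 0 lower, with 2205 genes at an unadjusted limma p under 0.05. With each array left out in turn, the counts lay between 0 and 348 higher and between 0 and 236 lower.

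Of the 10 genes, 3 were called higher and 1 lower. A filter that removed the dimmest 60% of probe sets gave 1 and 0, and there Abi3bp, Lrrc17, Dpt and Fmod were no longer tested. They were 5 higher with array weights (Postn and Mfap5 added), 0 lower with probe sets averaged per gene, 0 and 0 with the block adjusted over probe sets, and between 0 and 4 higher and 0 and 1 lower with each array left out. The replicate block adjusted over genes changed no call among the 10. Deviations from group means correlated at -0.09, 0.13 and 0.00 for same-numbered arrays and between -0.19 and 0.18 for differently numbered ones. With 3 arrays per group, these values cannot show whether the numbers pair the arrays. Changes of sign concerned Dcn (0.01 with quantile normalization) and Bgn (-0.03 with cyclic loess, and -0.03 to 0.10 with each array left out). The median change of the 9 genes lay between 0.34 and 0.55 with each array left out. The cause of these differences was not tested. Outside the 10, the block took the calls higher to 0 of 1 among other small leucine-rich proteoglycans (Ecm2), 1 of 2 among matricellular genes, 3 of 5 among endothelial markers and 0 of 1 among pericyte markers (Rgs5). Ogn, Fmod and the Control values of Abi3bp, Sox17, Rgs5, Hapln1 and Map2 lie at low signal. The Control mean of Lrrc17 (3.24) and the hCG mean of Dpt (3.42) lay below the array medians of 3.44 to 3.48.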
